A study of Mus musculus with 40 samples.

Results

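DNA methylation was measured by bisulfite amplicon sequencing in livers of male C57BL/6 mice (C57BL/6J in the study's methods) aged 9 weeks whose diet after weaning either matched or did not match the diet of their dam. Dams were fed a low-fat high-carbohydrate (LF) or a high-fat low-carbohydrate (HF) diet from before mating until weaning, and their sons were then fed either diet, with coconut oil as the main fat of both. Groups are named with the maternal diet first: LL had LF throughout, HH had HF throughout, HL had HF dams and LF after weaning, and LH had LF dams and HF after weaning. Animals were chosen by these labels alone. The matched animals were the 10 LL and 10 HH mice, and the mismatched animals were 9 HL and 10 LH mice, so 39 of the 40 animals of the series were compared. HL replicate 1 was not analysed here. All animals shared strain, sex, age and tissue. By the study's methods the male offspring of each cage were divided between both post-weaning diets, so littermates may stand in LL and LH or in HL and HH. The labels give neither litter nor cage. The p-values therefore measure the spread between animals that may include littermates, and the main tests take no account of litter.

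Methylation of cytosine in CpG dinucleotides is copied at cell division by the maintenance methyltransferase, and it can therefore keep a state set early in life. Imprinted genes are the best known case. At their control regions the copy from one parent is methylated and the copy from the other is not, which gives intermediate levels in a tissue. Diet around conception, in pregnancy and after weaning has been studied as a source of change at such regions and at metabolic genes of the liver. Setting matched against mismatched diets asks whether the difference between HF and LF dams depended on what their sons ate, which is the maternal by post-weaning interaction.

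Some of the CpGs named below are shown first, chosen by their unadjusted p-values. Each is in a window of 30 bases of the forward strand of the mouse build NCBIM37 (mm9), with the measured CpG in capitals. CpGs are numbered along the chromosome within a locus. Plagl1 (ENSMUSG00000019817.11) is on the forward strand of chromosome 10. Plagl1_7 lies upstream of the annotated gene start in chr10:12810426-12810455, and Plagl1_14 and Plagl1_17 lie in a non-coding exon in chr10:12810533-12810562 and chr10:12810556-12810585. Nr1h2_1 (UTR, chr7:51809235-51809264) and Nfkb1_15 (intron, chr3:135353931-135353960) are in genes of the reverse strand. These 5 CpGs had the smallest unadjusted p-values of all CpGs tested, and no CpG passed after adjustment. Insig2_2 (UTR, chr1:123224287-123224316, a reverse strand gene) is shown as the CpG with the smallest p-value of Insig2.
Plagl1_7: ccccggagccccaaCGgggcctcctcctca
Plagl1_14: tggctggcgtgttgCGcggcaaagcccacg
Plagl1_17: gcccacggcatctgCGatttgtcactcagc
Nr1h2_1: gcctgggagtagctCGaagcaacagcgctt
Nfkb1_15: cctttccccgcagcCGgggccgctcgatcc
Insig2_2: ccccagttcaccccCGcctccgccatcttc

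The Plagl1 amplicon, found by matching the study's primers to the bisulfite-converted build, was 250 bases long (chr10:12810348-12810597). The primers are given 5′ to 3′ as designed against converted DNA. They lie outside the stretch that holds the measured CpGs (chr10:12810372-12810570).
Plagl1 forward primer: ggtatttaggagattttggttttg
Plagl1 reverse primer: atcccaacccaaactaaataacaa

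Of 300 CpGs measured, 253 at 19 loci had at least 10 reads in at least 36 animals and were tested. The median reads per CpG had a lowest, median and highest value of 4335, 7630 and 18485.5 in matched animals and 4010, 6472 and 17282 in mismatched animals (difference 0.0364 on the log10 scale, permutation p = 0.558). The bisulfite conversion rate is not given in the sources used here, so at the 10 loci with a mean under 2% methylation and unconverted cytosine cannot be told apart.

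No CpG and no locus differed between matched and mismatched animals after correction for multiple testing. The difference is given as the mean of HH and LL minus the mean of HL and LH, in percentage points, with both diets as covariates. Of 253 CpGs, 17 (6.72%) had an unadjusted permutation p under 0.05, against 12.65 that chance gives at that threshold, and 0 passed the Benjamini-Hochberg adjusted threshold (smallest adjusted p from the permutation test 0.637). Of those 17, 13 were higher in matched animals (5.14% of CpGs tested) and 4 were lower (1.58%). Plagl1 held 11 of the 17, and the other 6 were among 236 CpGs elsewhere (2.54%). Over all 253 CpGs, 152 were higher and 101 lower in matched animals, with a median difference of 0.0446 points and a range from -2.53 to 3.35 points. Of 19 loci, 11 were higher and 8 lower, and 1 (5.26%), Plagl1, had an unadjusted permutation p under 0.05. In 0 of 19 loci were the matched animals all above or all below the mismatched ones.

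**Figure D1:**
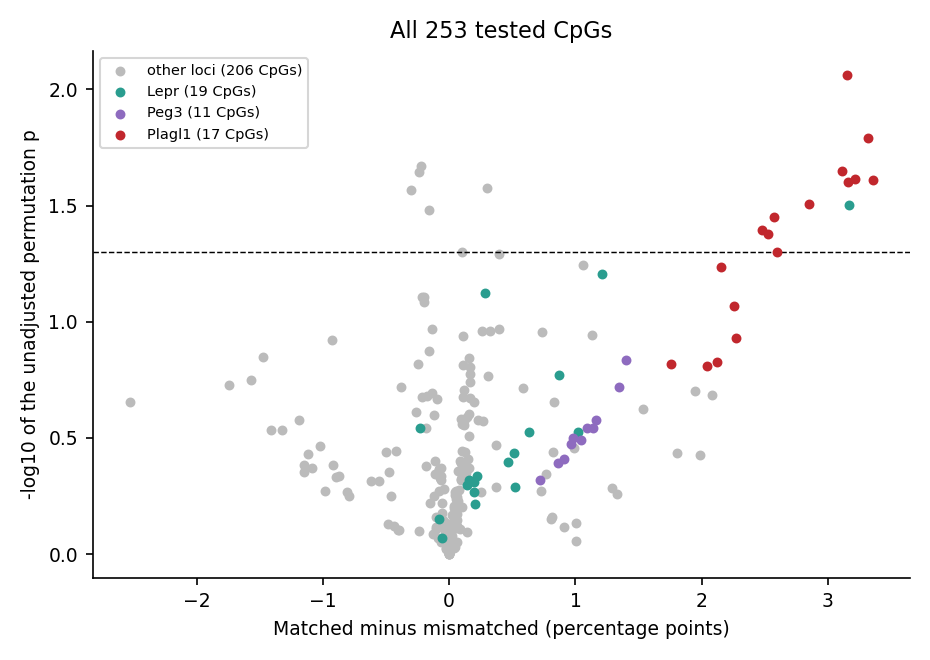
Difference between matched and mismatched animals in percentage points (x axis) against -log10 of the unadjusted permutation p (y axis) for the 253 tested CpGs, 1 point each, with the dashed line at p = 0.05. All 17 Plagl1 CpGs (red) and all 11 Peg3 CpGs (purple) lie right of 0, and 11 of the 17 points above the line are from Plagl1.

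Plagl1 encodes a zinc finger transcription factor that is expressed from the paternal allele. The locus mean of its 17 CpGs had a lowest, median and highest value of 47.1, 52.1 and 58.9% in LL and of 45.3, 52.8 and 54.9% in HH. In HL these values were 41.4, 48.0 and 54.3%, and in LH they were 47.3, 51.2 and 59.6%. The groups overlapped, with the lowest animal of all in HL and the highest in LH. Mean methylation was 53.5% ± 4.04 (SD, n = 10) in LL, 51.2% ± 3.41 (SD, n = 10) in HH, 47.7% ± 3.53 (SD, n = 9) in HL and 52.0% ± 3.58 (SD, n = 10) in LH. Matched animals were thus at 52.4% and mismatched animals at 49.8% as means of their group means. The difference of 2.53 points (SE 1.17, 95% interval 0.157 to 4.91) had a permutation p of 0.0385 (adjusted p = 0.698 over the 19 loci). Of the matched animals 15 of 20 were above the median of the mismatched animals, and 14 of 19 mismatched were below the median of the matched. The first count was not particular to Plagl1. Elsewhere it ran from 7 of 20 at Rxrg to 15 of 19 at Insig2. It was 14 of 20 at Pck2 and at Rxra, where the differences were 0.0233 and -0.000330 points.

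Among animals fed LF after weaning, HL minus LL was -5.81 points at Plagl1. Among those fed HF, HH minus LH was -0.740 points. Read the other way, the HF minus LF difference after weaning was -1.50 points in sons of LF dams and 3.57 points in sons of HF dams. HL was thus the group that stood lowest, and the other mismatched group, LH, lay between LL and HH. The interaction took 9.81% of the variance between animals and maternal diet took 16.4%, and the post-weaning diet took 1.64%. The medians of these shares over the 253 single CpGs tested, and not over loci, were 1.66%, 2.26% and 1.79%.

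**Figure D2:**
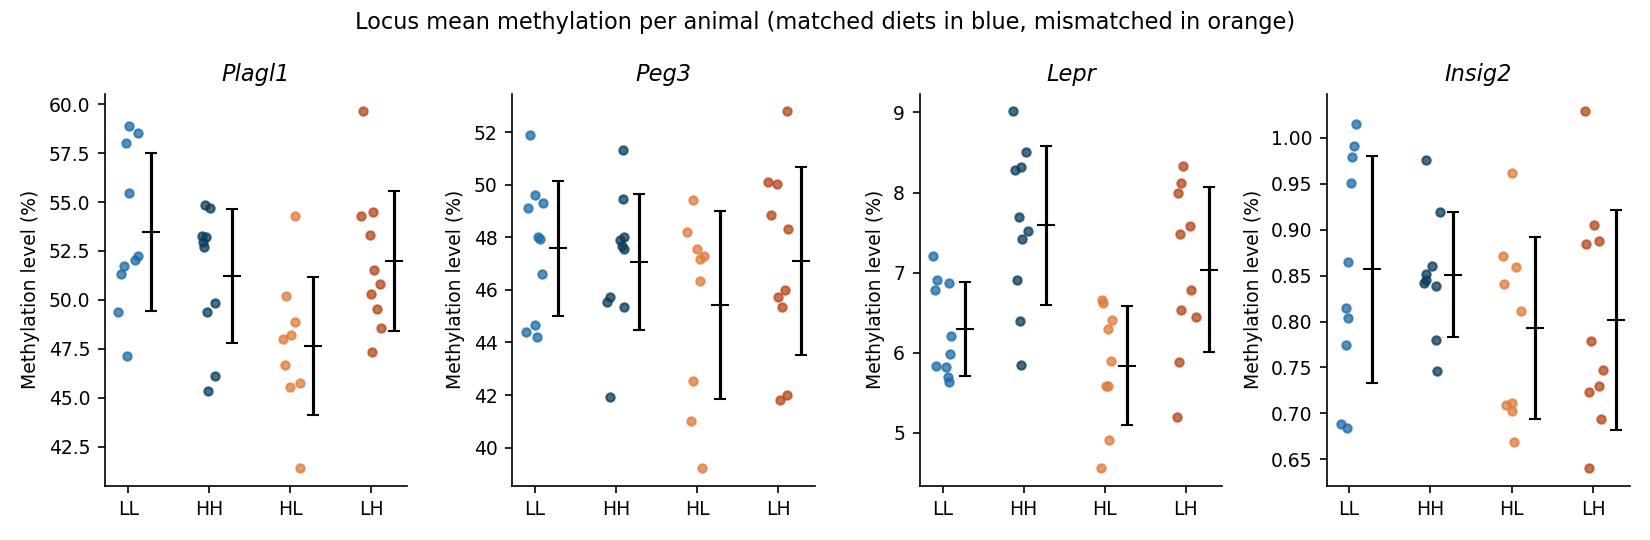
Locus mean methylation in percent (y axis) of every animal by group (x axis) at Plagl1, Peg3, Lepr and Insig2, with matched groups in blue, mismatched groups in orange, and the mean ± SD beside the points; the y axes do not start at 0. HL has the lowest mean at Plagl1 (47.7%), Peg3 (45.4%), Lepr (5.84%) and Insig2 (0.793%), and the groups overlap at each locus.

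All 17 CpGs of Plagl1 were higher in matched animals, by 1.76 to 3.35 points. HL had the lowest group mean at 17 of 17 CpGs and LL the highest at 17 of 17. CpGs of 1 amplicon are read from the same molecules, so these 17 are not 17 independent measurements. Over all 253 CpGs tested, HL was lowest at 106 and LL highest at 69. HL was thus lowest and LL highest both at the 9 Plagl1 CpGs upstream of the gene start and at the 8 in the non-coding exon. Plagl1_7, upstream, had the smallest p of the 253 CpGs: its mean was 52.5% ± 3.35 (SD, n = 10) in LL, 49.8% ± 3.32 (SD, n = 10) in HH, 46.3% ± 3.41 (SD, n = 9) in HL and 49.7% ± 3.68 (SD, 9 of 10 animals) in LH. The difference was 3.15 points (SE 1.12, permutation p = 0.00864, adjusted p = 0.637). In the exon, Plagl1_14 differed by 3.31 points (SE 1.30, permutation p = 0.0162, adjusted p = 0.637). Plagl1_17, the last CpG of the amplicon, differed by 3.11 points (SE 1.29, permutation p = 0.0224, adjusted p = 0.637). None of these values passed the adjusted threshold.

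**Figure D3:**
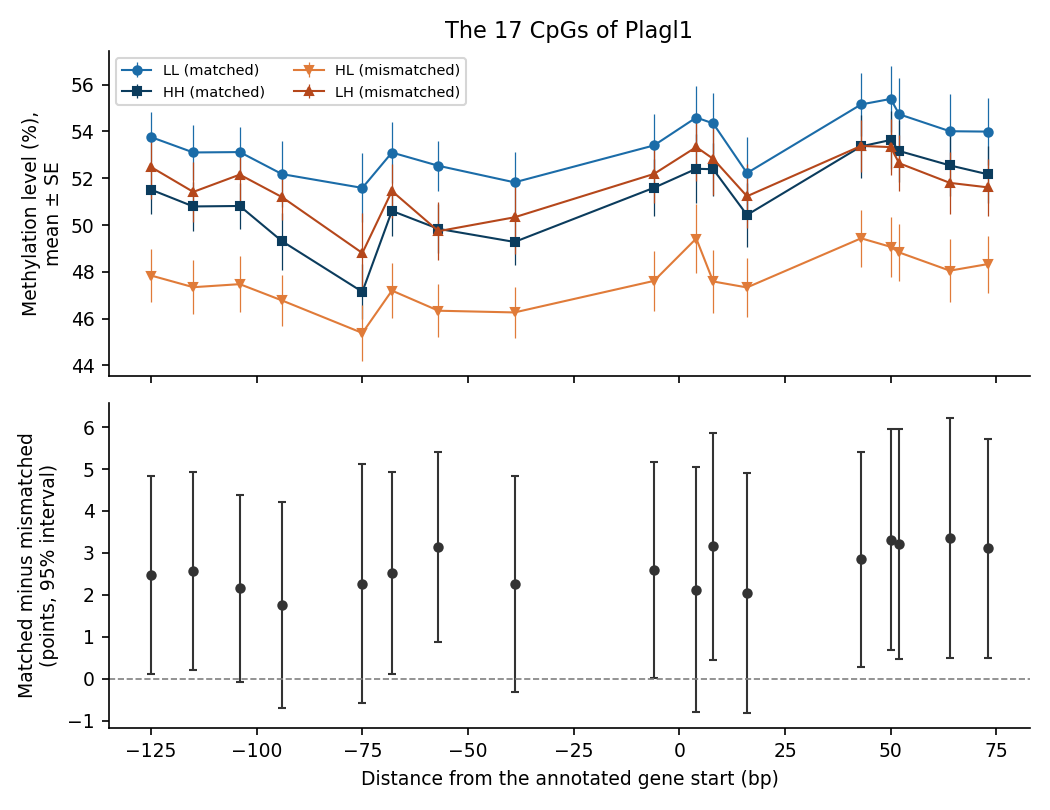
Upper panel: mean methylation in percent ± SE of each group at the 17 Plagl1 CpGs against their distance in bp from the annotated gene start; lower panel: the difference between matched and mismatched animals in percentage points with its 95% interval. HL is the lowest line and LL the highest at all 17 CpGs, and the differences run from 1.76 to 3.35 points.

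Plagl1 was also among the more thinly read loci, with a median of 784.5 reads per CpG and animal, and its group medians were 721 reads in LL, 784.5 in HH, 847 in HL and 763 in LH. LH replicate 8 had values at 2 of the 17 CpGs only, with 164 reads at each. Taking only animals with values at every tested CpG of a locus moved the difference to 2.66 points (permutation p = 0.0345, adjusted p = 0.655). With each animal left out in turn the difference stayed between 2.14 points, without HL replicate 5, and 2.96 points, without LH replicate 3. The unadjusted permutation p was under 0.05 in 23 of these 39 fits and between 0.0508 and 0.0713 in the remaining 16, which left out LL replicates 1, 2, 8 and 9, HL replicates 4, 5 and 6, LH replicates 1, 2, 5 and 9, and HH replicates 2, 3, 5, 7 and 9. The adjusted p ranged from 0.248 to 0.787.

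**Figure D4:**
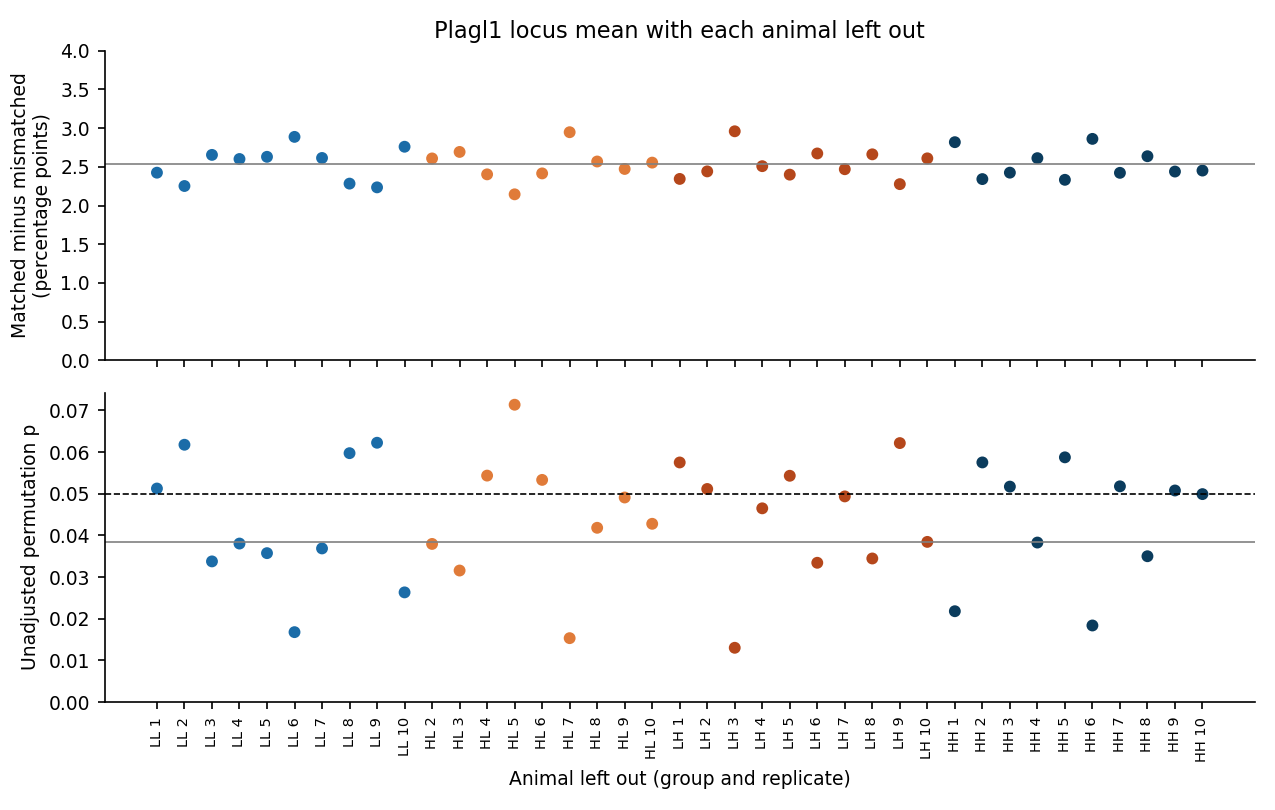
Difference between matched and mismatched animals at Plagl1 in percentage points (upper panel) and its unadjusted permutation p (lower panel) with the animal on the x axis left out, coloured by its group; the grey lines give the values with all 39 animals (2.53 points, p = 0.0385) and the dashed line p = 0.05. The difference lies between 2.14 and 2.96 points, and 16 of 39 points in the lower panel are above the dashed line.

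Animals carry numbers in the labels that fall into 12 runs in which neighbours differ by at most 3, of which 5 runs with 22 animals held both post-weaning diets from dams of 1 diet. The labels do not say what a run is. Within these runs the HF minus LF difference at Plagl1 was -2.74, 5.42 and 2.93 points in the 3 runs of HF dams and 5.19 and -2.49 points in the 2 runs of LF dams. With runs as a block the difference between matched and mismatched animals was 0.953 points (permutation p = 0.649), and Plagl1_7, Plagl1_14 and Plagl1_17 differed by 0.843, 1.71 and 1.93 points (permutation p = 0.681, 0.498 and 0.432). A quasi-binomial model of the reads gave p = 0.124 for the locus, and the permutation test with no diet covariates gave 2.42 points with p = 0.0654.

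Peg3, a second imprinted gene that is expressed from the paternal allele and acts in growth and maternal behaviour, was read at 11 CpGs in a UTR and an intron (chr7:6682916-6683052). Its lowest, median and highest animals were at 44.2, 48.0 and 51.9% in LL and at 41.9, 47.6 and 51.3% in HH. They were at 39.2, 47.2 and 49.4% in HL and at 41.8, 47.2 and 52.8% in LH. All 4 groups overlapped over most of their range. The group means were 47.6% ± 2.57 (SD, n = 10) in LL, 47.1% ± 2.58 (SD, n = 10) in HH, 45.4% ± 3.57 (SD, n = 9) in HL and 47.1% ± 3.57 (SD, n = 10) in LH. The difference was 1.06 points (SE 0.993, 95% interval -0.961 to 3.07, permutation p = 0.296, adjusted p = 0.701). Without HL replicate 6 it was 0.668 points (permutation p = 0.486), and with runs of animal numbers as a block 0.360 points (permutation p = 0.808). As at Plagl1, HL had the lowest mean and LL the highest at 11 of 11 CpGs. A lowest HL was not particular to the imprinted loci. HL was also lowest at 14 of 19 Lepr, 5 of 5 Pck1 and 7 of 10 Rxrg CpGs. Over all 253 CpGs HL was lowest at 106 and LL highest at 69. All 11 Peg3 CpGs were higher in matched animals, by 0.717 to 1.40 points, with 0 at an unadjusted permutation p under 0.05. Peg3 was read at a median depth of 29071 reads. Both imprinted loci together had 28 of 28 CpGs higher in matched animals, beside 152 of 253 over all loci, these 28 included. CpGs of an amplicon share molecules, so the 28 stand for 2 loci and not for 28 independent measurements. Igf2, also imprinted, had too few animals to be tested, and its mean was lower in matched animals (3.32 against 3.66%). The median locus difference of Plagl1 and Peg3 was 0.517 residual SDs between animals, beside 0.152 over all 19 loci, of which 10 have means under 2%. In percentage points these medians were 1.79 and 0.0232. The median of the imprinted loci rests on Plagl1, at 0.694 residual SDs, and Peg3, at 0.341. Peg3 was below Lepr (0.586), Insig2 (0.532), Nr1i2 (0.473) and Nfkb2 (0.344), which are not among the imprinted loci.

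Lepr, the leptin receptor, was read at 19 CpGs around its gene start, in the UTR and upstream. It had the second smallest p of the loci. Its lowest, median and highest animals were at 5.63, 6.10 and 7.21% in LL, 5.85, 7.61 and 9.01% in HH, 4.56, 5.89 and 6.66% in HL and 5.20, 7.14 and 8.33% in LH. The 2 groups fed HF after weaning were the higher ones, and the post-weaning diet took 34.9% of the variance between animals. The interaction took 5.72%. Means were 6.30% ± 0.589 in LL (SD, n = 10), 7.59% ± 0.993 in HH (SD, n = 10), 5.84% ± 0.746 in HL (SD, n = 9) and 7.04% ± 1.03 in LH (SD, n = 10). Sons of HF minus sons of LF dams was -0.457 points on LF and 0.553 points on HF. Matched animals were higher by 0.505 points (SE 0.276, 95% interval -0.0560 to 1.07, permutation p = 0.0743, adjusted p = 0.698).

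Of the 19 Lepr CpGs, 16 were higher in matched animals and 1 had an unadjusted permutation p under 0.05. That CpG, Lepr_1, was the most methylated of the locus, with means of 25.6% ± 3.27 in LL, 29.8% ± 4.24 in HH, 23.2% ± 2.50 in HL and 25.9% ± 6.48 in LH. It differed by 3.17 points (SE 1.42, permutation p = 0.0315, adjusted p = 0.637). With animal-number runs as a block both Lepr values turned to the other direction, to -0.393 points at the locus (permutation p = 0.247) and -0.624 points at Lepr_1 (permutation p = 0.670). Leaving out LH replicate 4, LH replicate 10, HH replicate 1 or HH replicate 2 brought the locus to an unadjusted permutation p of 0.0496, 0.0432, 0.0300 and 0.0460. These were the 4 of 39 such fits under 0.05, and the largest p was 0.135, without LH replicate 5. With at least 1000 reads per value the locus differed by 0.594 points (permutation p = 0.0409, adjusted p = 0.650). With reads pooled over the locus the permutation p was 0.110, and with no diet covariates it was 0.168. The quasi-binomial model gave p = 0.551 for the locus and p = 0.242 for Lepr_1.

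Insig2 holds the SREBP escort complex in the endoplasmic reticulum when sterols are plentiful. Its 23 CpGs, annotated as UTR, were almost unmethylated. The lowest, median and highest animals were at 0.684, 0.840 and 1.02% in LL, 0.746, 0.846 and 0.976% in HH, 0.669, 0.811 and 0.962% in HL and 0.641, 0.763 and 1.03% in LH. The groups overlapped over nearly all of this range. The difference was 0.0564 points (SE 0.0344, 95% interval -0.0135 to 0.126, permutation p = 0.110, adjusted p = 0.698, 38 animals since HH replicate 1 had no value). It was 0.0690 points without LH replicate 10 (permutation p = 0.0428), the 1 fit under 0.05 of 39 with an animal left out. On the log2 scale of methylated over unmethylated reads it turned to -0.0209 (limma p = 0.729). Insig2_2 differed by 0.397 points (permutation p = 0.0511, adjusted p = 0.681). This value leaned on single animals. It was 0.267 points without LL replicate 4 (permutation p = 0.0868) and 0.454 points without LH replicate 5 (permutation p = 0.0190). Of the 39 fits with an animal left out, 14 had an unadjusted permutation p under 0.05, and the lowest adjusted p was 0.538.

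Among the 4 loci of sterol regulation and synthesis, 3 were higher in matched animals, with a median difference of 0.0398 points. Of their 71 CpGs, 47 were higher and 0 had an unadjusted permutation p under 0.05. Over all loci 11 of 19 and 152 of 253 CpGs were higher. Srebf1, the master activator of fatty acid synthesis genes, differed by 0.0232 points, and Srebf2, which drives cholesterol synthesis genes, by -0.00849 points. Ebp, a sterol isomerase of cholesterol synthesis, had the widest gap of the 4 at 0.949 points (permutation p = 0.579), but 1 animal set it. HH replicate 1 was at 20.8%, and without it the HH mean was 0.795% ± 0.161 (SD, n = 9) and the difference -0.0523 points (permutation p = 0.405).

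Nuclear receptors act as lipid, bile acid and xenobiotic sensors of the liver. Of 6 such loci, 1 was higher in matched animals and 5 lower, with a median difference of -0.0340 points, and 23 of their 62 CpGs were higher. Over all loci 11 of 19 and 152 of 253 CpGs were higher. CpGs of an amplicon share molecules and are not independent. Of the 5 lower loci, Nr1h2, Nr1h3 and Rxra differed by -0.0280, -0.0400 and -0.000330 points (permutation p = 0.406, 0.787 and 0.998). Nr1i2, the pregnane X receptor, was the one that was higher, by 0.226 points (permutation p = 0.155) at a level of 94.4% in matched and 94.1% in mismatched animals. Nr1i3, the constitutive androstane receptor, was at 31.3% in matched and 32.6% in mismatched animals (difference -1.29 points, 95% interval -3.70 to 1.11), and Rxrg, a retinoid X receptor, was at 11.7 and 12.7% (difference -1.01 points, 95% interval -3.33 to 1.31). All 4 CpGs of Nr1i3 and all 10 of Rxrg were lower in matched animals. At Rxrg the mismatched mean includes LH replicate 8, at 27.0% from a median of 123 reads per CpG. It also includes LH replicate 6, at 4.49% from a median of 398.5 reads, where the locus median was 30249. The Rxrg difference without either animal is not given here. Nr1h2, the oxysterol receptor LXR beta, held the 1 CpG of the group with an unadjusted permutation p under 0.05. At Nr1h2_1 the means were 0.394% ± 0.122 in LL, 0.620% ± 0.324 in HH, 0.630% ± 0.262 in HL and 0.836% ± 0.389 in LH (difference -0.226 points, SE 0.0938, permutation p = 0.0213, adjusted p = 0.637). Its unadjusted p was 0.139 with runs of animal numbers as a block (permutation, -0.211 points) and 0.0841 in the quasi-binomial model. Nr1h3 (LXR alpha) differed by -0.0400 points, or -0.0975 points without HH replicate 5, and Rxra by -0.000330 points, or -0.0530 points without LL replicate 10.

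Leptin and insulin signalling was read at 3 loci, of which 2 were higher and 1 lower in matched animals (median difference 0.0193 points). Of its 40 CpGs, 21 were higher, beside 152 of 253 over all loci. Lep, which encodes leptin, was at 65.7% in matched and 66.4% in mismatched animals (difference -0.657 points, 95% interval -2.86 to 1.55), and Irs1_a, in a coding exon of the insulin receptor substrate, at 94.5% in both (difference 0.0193 points). Both gluconeogenesis loci were higher in matched animals. Pck1, the cytosolic phosphoenolpyruvate carboxykinase, was at 26.5% in matched and 24.8% in mismatched animals with all 5 CpGs higher, and the interval of its difference of 1.67 points ran from -2.19 to 5.54. Pck2, the mitochondrial enzyme, differed by 0.0233 points, and by 0.0382 points without HH replicate 7 (permutation p = 0.433).

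The NF-kappa-B subunit genes Nfkb1 and Nfkb2 stand for inflammation. Nfkb1 was at 0.812% in matched and 0.813% in mismatched animals (difference -0.000122 points, permutation p = 0.997). Of its 19 CpGs, 3 were lower in matched animals at an unadjusted permutation p under 0.05, beside 1.58% of all CpGs tested, and 0 passed after adjustment. Nfkb1_15 had means of 0.673% ± 0.325 in LL, 0.730% ± 0.293 in HH, 0.850% ± 0.176 in HL and 1.03% ± 0.411 in LH (SD, 9 or 10 animals a group, difference -0.241 points, SE 0.102, permutation p = 0.0227, adjusted p = 0.637). With runs of animal numbers as a block Nfkb1_15 differed by -0.136 points (permutation p = 0.438). The other two, Nfkb1_4 and Nfkb1_11, chosen after their values were seen, differed by -0.305 and -0.156 points. Nfkb2_1, also chosen after its value was seen, was 0.303 points higher in matched animals (permutation p = 0.0267, adjusted p = 0.637), while the Nfkb2 locus differed by 0.0348 points. Of the 37 CpGs of both genes, 22 were higher in matched animals, beside 152 of 253 over all loci.

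**Figure D5:**
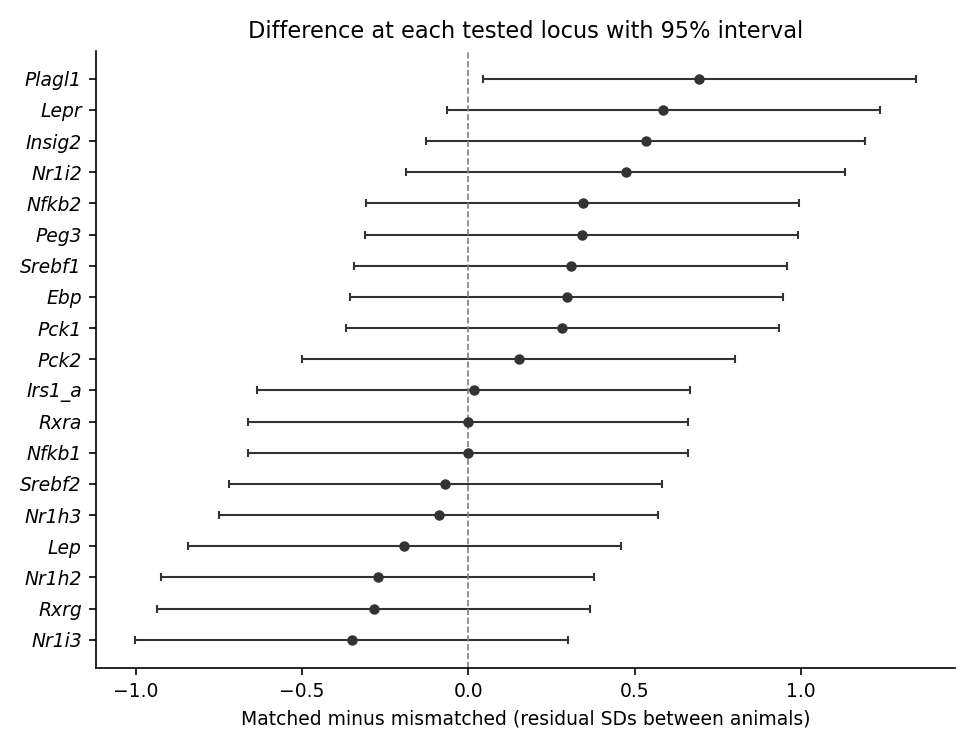
Difference between matched and mismatched animals at each of the 19 loci, divided by the residual SD between animals so that loci of different levels share 1 axis (x axis), with the 95% interval from the linear model. The intervals of 18 loci include 0 and that of Plagl1 runs from 0.0430 to 1.35 residual SDs.

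The precision differed by level. Where the locus mean was 2% or more (9 loci), the median half-width of the 95% interval was 2.21 points, from 0.316 to 3.87. At the 10 loci under 2% it was 0.0749 points, with a largest value of 2.09 points at Ebp. Of 89 CpGs with a mean of 2 to 98%, 12 had an unadjusted permutation p under 0.05, of which 11 were those of the Plagl1 amplicon and 1 was Lepr_1. Of the other 164 CpGs 5 had. The difference between sons of HF and LF dams had opposite signs in the 2 post-weaning diets at 105 of 253 CpGs and 5 of 19 loci.

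A mismatch of diets could also alter how much animals differ from one another. The mean absolute deviation from the median of an animal's own group was larger in mismatched animals at 8 loci and in matched animals at 11. By permutation test 0 of 19 loci passed at an adjusted p under 0.05, and 0 at an unadjusted p under 0.05. Squared deviations gave 2 loci at an unadjusted p under 0.05 and 0 adjusted. Rxrg had the smallest p, with deviations of 1.31 points in matched and 2.86 points in mismatched animals (difference -1.55 points, permutation p = 0.0726, adjusted p = 0.925). The wider spread was in LH (SD 6.36), whose animals ran from 4.49 to 27.0%, and not in HL (SD 1.86). The highest, LH replicate 8, and the lowest, LH replicate 6, were the 2 animals with the fewest reads at Rxrg, with medians of 123 and 398.5 reads per CpG against a locus median of 30249. Without LH replicate 8 the difference in deviations was -0.971 points (permutation p = 0.152), and with at least 1000 reads per value it was -0.420 points (permutation p = 0.469). Without LL replicate 4, HL replicate 2 or HL replicate 9 the unadjusted permutation p was 0.0481, 0.0483 and 0.0492. Peg3 followed, with 1.92 points in matched and 2.77 points in mismatched animals (difference -0.844 points, permutation p = 0.199, adjusted p = 0.925), and without HL replicate 6 the difference was -0.557 points (permutation p = 0.354).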

How the data were processed

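Liver DNA was bisulfite treated, amplified with locus primers, barcoded by animal and sequenced. The authors called methylation with Bismark (version not given in the sources used here) on mm9, per the submitters' processing notes. They deposited 1 table of counts (methylated reads and all reads for every CpG in every animal) and 1 table of the methylated fraction. The deposited fraction equalled the ratio of the deposited counts to within 5e-16 over 11071 values. No value rested on 1 to 99 reads, since the lowest count of reads above 0 was 100. All 300 positions are CpGs in NCBIM37 and were annotated with GENCODE M1.

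Methylation was computed as 100 times methylated over all reads. A CpG was tested when 36 animals or more had at least 10 reads there. CpGs within 1000 bp formed a locus, whose value is the mean over its tested CpGs. The interaction of maternal and post-weaning diet was tested with both diets as covariates by permuting residuals of the additive model (Freedman-Lane, 100000 resamples, 2-sided), with Benjamini-Hochberg adjustment over 253 CpGs or 19 loci at 0.05. The smallest p that these resamples can give is 1e-05. SE and 95% intervals came from the linear model. The printed difference is (HH + LL)/2 - (HL + LH)/2. Spread and depth were compared by permuting matched and mismatched labels. Intervals cover the spread between animals, and PCR reads carry no molecular identifiers, so depth bounds counting error only.

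Animals were grouped by the sample labels. Each animal was counted as its own library by its label. Even the most similar animals were 0.808 points apart at the average CpG. This shows only that no animal's values repeat another's, and not whether animals are littermates. The groups, lists and tests were chosen with earlier results of these data known. Named loci were the 3 with the smallest p, any with an unadjusted p under 0.05 or past the adjusted threshold, and Plagl1 and Peg3. Named CpGs were the 5 with the smallest p and the one with the smallest p in each of those 3 loci. For the spread the 2 loci with the smallest p were named. The remaining loci are given by role. Alternatives were the F test, limma on percent and on log2((methylated + 1)/(unmethylated + 1)), a quasi-binomial model, no diet covariates, a rank sum, depth as a covariate, runs of animal numbers as a block, 5 filters on reads, missing values and levels, pooled reads and leaving out each animal, and for the spread squared deviations, the log2 scale and diet covariates. The locus mean from complete animals was added after seeing the data. The scripts for the CpG and spread tests were tested on simulated data. The position and sequence of Lepr are not reported here. Software versions were R 4.3.3 with limma 3.58.1, and Python 3.11.15 with scipy 1.17.1, numpy 2.4.6, matplotlib 3.10.9 and pandas 2.3.3.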

Additional observations from a re-analysis of the deposited data

Results flagged for a closer look

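An animal was singled out where its gap to the nearest animal of its group was large against the group's whole range (Dixon's test at 95%). Of 108 groups of values examined 13 held such an animal, and chance gives about 1 in 20 groups, or 5.4. The locus means were those of Ebp in HH replicate 1 (20.8%) and LH replicate 5 (1.59%), Pck2 in HH replicate 7 (0.478%), Nr1i2 in HL replicate 4 (93.1%), Irs1_a in LH replicate 7 (91.7%), Pck1 in HL replicate 4 (27.2%), Nr1h2 in HL replicate 8 (1.05%), Rxra in LL replicate 10 (1.81%) and, in HH replicate 5, Nr1h3 (2.54%). The CpG values were Nr1h2_1 in LL replicate 5 (0.702%) and Insig2_2 in LL replicate 4 (3.49%) and LH replicate 5 (1.60%). The median reads per CpG of LH replicate 10 (12920) stood above its group. Leaving out the animal turned the direction at Ebp, from 0.949 to -0.0523 points without HH replicate 1, and at Irs1_a, from 0.0193 to -0.149 points (permutation p = 0.693) without LH replicate 7. Neither locus passed the threshold with or without that animal. The difference moved by over 1.5 times, with no change of direction, at Pck2 (0.0233 to 0.0382 points), Rxra (-0.000330 to -0.0530 points), Nr1h3 (-0.0400 to -0.0975 points) and Nr1h2 (-0.0280 to -0.00905 points).

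CpGs outside the tested set, which had too few animals for the comparison, also held methylated reads. The mean level was 0.911% at Irs1_b (35 animals), 0.970% at further Rxra CpGs (21 animals), 1.67% at further Nr1h3 CpGs (34 animals), 0.765% at Pparg (32 animals) and 13.1% at 1 CpG downstream of 6030445D17Rik (4 animals). At the imprinted gene Igf2, a paternally expressed growth factor, 11 CpGs of a UTR had a mean of 3.50% ± 0.449 (SD, 28 animals), with 3.32% ± 0.410 in 13 matched and 3.66% ± 0.432 in 15 mismatched animals. This difference was not tested, and its direction is the opposite of that at Plagl1 and Peg3.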

How the results depend on the processing

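No CpG or locus passed the adjusted threshold under any alternative run, leaving out each animal included (0 in each). The filter of at least 100 reads could not change any result, since the lowest count of reads above 0 was 100. The 17 CpGs with an unadjusted p under 0.05 became 8 in the quasi-binomial model, 9 with runs of animal numbers as a block, 6 of 207 CpGs with at least 1000 reads and 4 of 163 CpGs with a value in all animals, and ranged from 13 to 21 with 1 animal left out. Plagl1 held 0 of the 8, 0 of the 9, 0 of the 6 (none of its CpGs was left to test) and 1 of the 4. The count of 1 locus with an unadjusted p under 0.05 became 0 in the quasi-binomial model, without diet covariates, in the rank sum, with the run block and with values in all animals (14 loci), and ranged from 0 to 3 with 1 animal left out, the 3 without LH replicate 10. With at least 1000 reads the count stayed at 1, but the locus was Lepr, since Plagl1 was not tested there. For spread the count of 0 became 2 with squared deviations and ranged from 0 to 1 with 1 animal left out. Directions turned at Insig2 in limma on the log2 ratio (-0.0209), and with the run block at Lepr (-0.393 points) and Lepr_1 (-0.624 points). The block kept 22 of 39 animals, and the cause of these changes was not tested. No paired analysis was possible because the labels carry no replicate numbers shared between groups. The run block grouped animals by their numbers and is not a pairing that the labels give. Depth limits Rxra, Nr1h3 and Plagl1 most, with medians of 222, 591 and 784.5 reads per CpG.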
